A study of Saccharomyces cerevisiae with 6 samples.

Results

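The genes examined here are 51 meiosis and sporulation genes of *Saccharomyces cerevisiae*, chosen by name as known regulators, early, middle and late genes of the sporulation programme, among 5449 genes tested on the arrays. They were chosen with earlier results of these data known. All 51 were found in the platform annotation, each with 1 probe set of a kind meant to read a single gene. Expression was measured on 6 arrays, 3 for cultures expressing wild-type H2B (strain YKG001) and 3 for cultures expressing H2B with lysine 37 changed to alanine (strain YKG007), to ask whether this residue takes part in regulating transcription across the genome. Both strains are MATa and carry (hta1-htb1)D::LEU2 and (hta2-htb2)D::TRP1 together with the alleles leu2D1, ura3-52, lys2D1, lys2-128d, his3D200 and trp1D63. They differ in the HIS3 plasmid that supplies the only H2A and Flag-tagged H2B, which is pZS145 in YKG001 and pKG2, with the K37A codon, in YKG007. Cultures were grown side by side in YPD, a rich glucose medium, and collected while growing exponentially, with an OD600 of 1.0 at harvest. Each strain is represented by separate cultures of a single strain, so the spread between arrays is one between cultures and not between independently built strains. The labels name histones as the source material but total RNA as the molecule measured, and RNA is what the methods describe.

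Sporulation is the programme by which a diploid yeast cell that lacks nitrogen and a fermentable sugar passes through meiosis and packs its haploid nuclei into spores. The activator Ime1 starts it, early genes then carry out recombination and chromosome pairing, the activator Ndt80 switches on middle genes for the nuclear divisions and for the prospore membrane, and late genes complete the spore wall. In growing cells these genes are held down, the early ones by Ume6 with a histone deacetylase at the URS1 element and many middle ones by Sum1 with the deacetylase Hst1, while haploid cells also repress *IME1* through Rme1. The cultures measured here were growing haploid cells, and their mating type gene signals were those of MATa cells. The 5 MATa markers, among them the a-factor gene *MFA1* and the receptor gene *STE2*, had log2 signals of at least 11.65 on every array, whereas the 3 MATalpha markers reached at most 8.74, with *MF(ALPHA)1* below background and *MF(ALPHA)2* and *STE3* above it. In a bulk culture, fewer cells expressing a gene and less RNA per cell cannot be told apart.

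Values are RMA signals on the log2 scale, and a difference is always the K37A mean minus the wild-type mean, so that a difference of 1 is 2-fold. Background was taken as the 95th percentile of the 1747 probe sets named for genes outside the R64 table of *S. cerevisiae*, on an array that also carries probe sets for *Schizosaccharomyces pombe*, a mean log2 signal of 6.30. Of the 51 genes, 45 lay above it, and the 6 below it were the mRNA methyltransferase gene *IME4*, the early genes *HOP2* and *MEK1* and the middle genes *SPO19*, *SPO74* and *SPR28*. Nearly all probe sets tested, 5411 of 5498, also lay above this background. A signal above it does not show that a gene is transcribed. *HTB2*, which is deleted in both strains, read 10.4 to 10.6, and the MATalpha marker *STE3* had a mean of 8.57 in these MATa cells. The source of these signals was not tested. The median signal of the 51 genes was 7.97 on the log2 scale, against 11.1 over all 5498 probe sets tested, although probe sets differ in affinity and such levels do not rank transcripts. *SUM1*, *SPR6*, *SPO12* and *SPO14* gave mean signals above 11, where *SPO12*, a regulator of mitotic exit, and *SPO14*, a phospholipase D, also act in growing cells. The array medians over all 5498 probe sets ran from 11.05 to 11.10, and *HTB1*, the H2B gene on the plasmid, read 14.4 to 14.5 throughout, a signal that does not tell the K37A codon from the wild-type one.

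**Figure D1:**
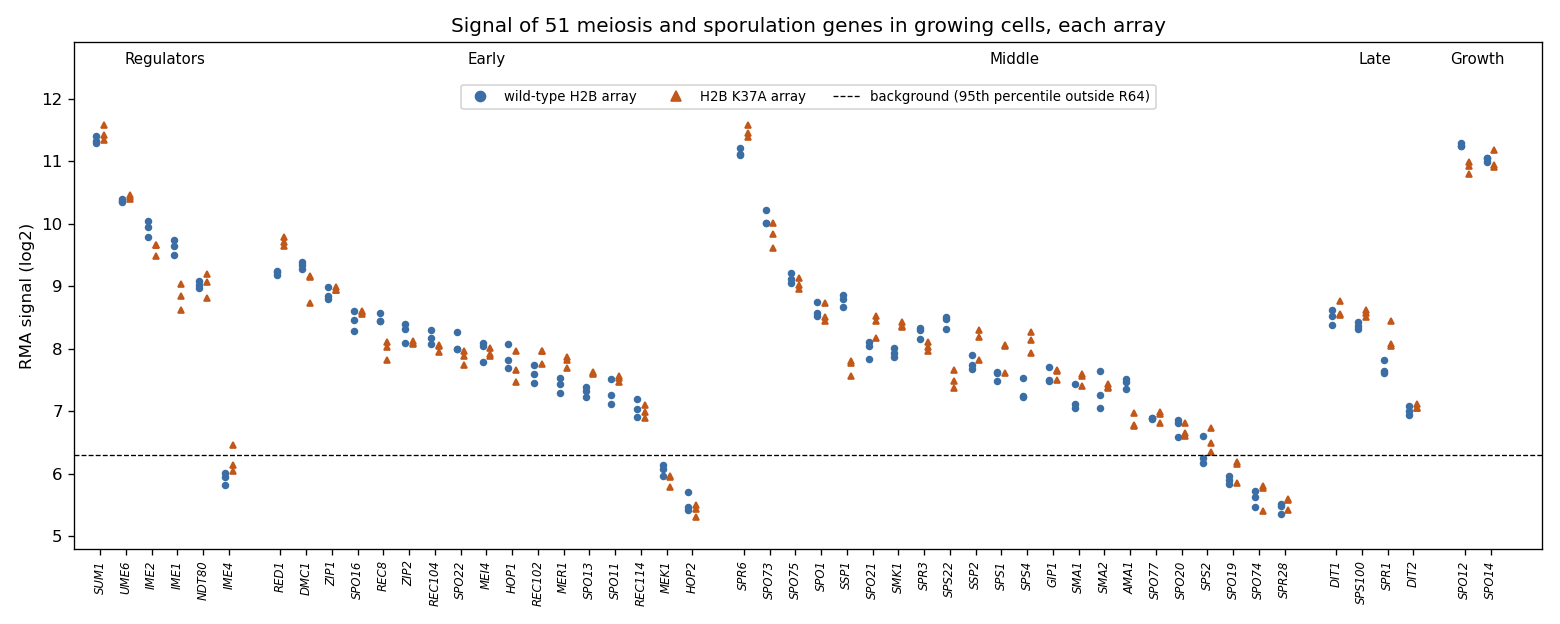
RMA signal (log2 axis) of each of the 51 genes on each array, ordered within class by mean signal. Circles are the 3 wild-type H2B arrays, triangles the 3 H2B K37A arrays and the dashed line is the background of 6.30. In all, 6 genes have a mean below the line, and "Growth" marks the pair of genes that also act in growing cells.

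Between the H2B K37A cultures and those with wild-type H2B, 15 of the 51 genes differed at an adjusted p of 0.05 (limma with Benjamini-Hochberg adjustment over all 5498 probe sets), 8 of them higher and 7 lower in the mutant. That is 29.4% of the genes, where 14.5% of all probe sets tested passed, 6.44% higher and 8.08% lower. The signals moved in both directions, and the median difference of the 51 genes was 0.06 on the log2 scale, against 0.0020 over all probe sets. The median size of the difference without its sign was 0.20, against 0.091 over all probe sets. The 51 genes had a lower median signal than all probe sets, 7.97 against 11.1, and no comparison with probe sets of like signal was made. Only *SSP1* differed by at least 2-fold, being lower in the mutant, where 0.364% of all probe sets differed by that much, 0.0364% higher and 0.327% lower. The strains did not overlap for 23 of the 51 genes, 11 higher and 12 lower in the mutant. This share of 45.1% was close to the 42.1% of all probe sets, 20.6% higher and 21.5% lower, without overlap. The number of genes that passed depended on single arrays, and became 5, 0 or 6 when wild-type replicate 1, 2 or 3 was dropped and 18, 1 or 14 when K37A replicate 1, 2 or 3 was dropped. The share of all probe sets that passed changed as well, to 1%, 0.0364% or 2.46% and to 20.7%, 0.127% or 9.11% in the same order. Without wild-type replicate 2, limma called 0 of the 51 genes but 19 had an unadjusted p under 0.05, as did 1502 of all 5498 probe sets, of which 2 passed.

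**Figure D2:**
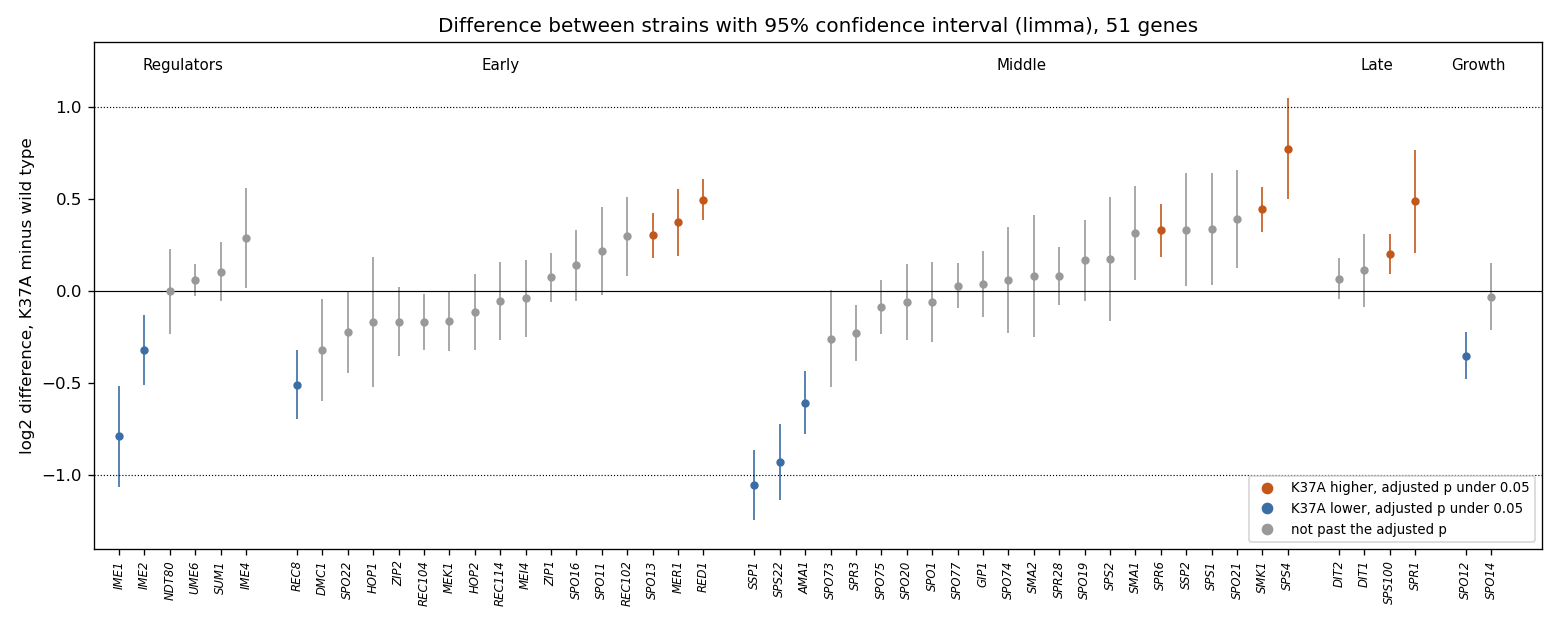
Log2 difference (K37A minus wild type) of each of the 51 genes with its 95% confidence interval from limma, ordered within class. Orange points passed the adjusted p with K37A higher (8 genes), blue points with K37A lower (7 genes) and grey points did not pass (36 genes). Dotted lines mark 2-fold differences, which only *SSP1* exceeds.

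Among the 6 regulators, *IME1* and *IME2* fell and none rose by limma, where 8.08% of all probe sets fell and 6.44% rose. *IME1* (YJR094C), the master activator of meiosis, had log2 signals of 9.65, 9.73 and 9.50 in wild-type cells and 9.04, 8.62 and 8.85 in mutant cells. Every mutant culture was lower than every wild-type culture, and the gene fell by 0.79 on the log2 scale, to 0.578 of the wild-type value (standard error 0.11, limma adjusted p = 0.0177). *IME2* (YJL106W), a protein kinase gene activated by Ime1, had 10.04, 9.94 and 9.79 against 9.66, 9.65 and 9.49. It was also lower in every mutant culture, but by less, to 0.800 of the wild-type value (log2 difference -0.32 with a standard error of 0.08, limma adjusted p = 0.0447). The DNA-binding repressors and the activator of middle genes showed smaller differences. *UME6*, whose product binds URS1, differed by 0.06 (95% confidence interval -0.03 to 0.14), and the middle gene repressor *SUM1* by 0.10 (interval -0.06 to 0.26). *NDT80*, the activator of middle genes, had means of 9.02 in both strains, and its interval of -0.23 to 0.23 lay within 1.5-fold. *IME4*, which is opposed in haploids by an antisense transcript, stayed near background with 5.83, 5.95 and 6.01 in wild-type cells and 6.13, 6.47 and 6.04 in mutant cells, and did not pass (adjusted p = 0.129 from limma).
The call for *IME1* was lost without wild-type replicate 1, wild-type replicate 2 or K37A replicate 2, while its difference stayed between -0.89 and -0.68 with any array left out. The call for *IME2* held only without K37A replicate 1, although its difference ranged from -0.39 to -0.26 over the same settings. *IME1* is also repressed by glucose, and a list of 17 measured glucose-repressed genes was mostly lower in the mutant. This list was added after the files were seen. Its largest fall, -1.24 for *CAT8*, belongs to a gene that the study picked by fold change on these same arrays. Calls in the list were not recounted with single arrays left out. Of the 17 genes, 8 were lower and 0 higher by limma (13 of 17 at an unadjusted p under 0.05 in either direction, against 1923 of all 5498 probe sets), where 8.08% of all probe sets were lower and 6.44% higher. Their mean log2 signal was 10.05, 9.85 and 9.78 in wild-type replicates 1 to 3 and 9.70, 9.61 and 9.44 in K37A replicates 1 to 3. The strains did not overlap, but the nearest cultures of the strains lay closer together than the highest and lowest culture within either strain. The first principal component over all probe sets, with 71.5% of the variance, put the arrays in the same order. The list was not uniform, with 15 differences below 0 and 2 above. *ADH2*, named after its values were seen, was higher in every mutant culture. It rose by 0.58 and narrowly missed the cutoff (standard error 0.15, limma adjusted p = 0.0505). For *SIP4*, *FBP1* and *MLS1* the strains overlapped. The part of the glucose-repressed genes in the *IME1* and *IME2* differences was not tested.

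The 25 upstream factors on the array that act on *IME1* or with Ume6 and Sum1 showed 5 lower genes and 0 higher ones by limma (10 of 25 at an unadjusted p under 0.05 in either direction, against 1923 of all 5498 probe sets). Over all probe sets 8.08% were lower and 6.44% higher. This list, too, was chosen with earlier results of these data known. *RME1*, the haploid repressor of *IME1*, fell by 0.24 on the log2 scale (standard error 0.06, adjusted p = 0.0432 from limma). *MSN4*, a stress activator that can act at the *IME1* promoter, fell by 0.52 (standard error 0.09), the kinase gene *RIM11*, needed for Ime1 to work with Ume6, by 0.29 (standard error 0.07) and *SSN8*, a cyclin of the Mediator kinase module also called *UME3*, by 0.28 (standard error 0.05). The fifth, *SOK2*, a repressor of *IME1*, fell by 0.22 (standard error 0.04) and is named because it completes the count. Both activators and repressors of *IME1* were thus among the lower genes. The deacetylase genes *RPD3* and *HST1* and the corepressor gene *SIN3*, named after their values were seen, differed by 0.0014, 0.11 and -0.05 and did not pass. The 5 calls became 0, 0 or 2 without wild-type replicate 1, 2 or 3 and 5, 0 or 3 without K37A replicate 1, 2 or 3. In those settings 1%, 0.0364% or 2.46% and 20.7%, 0.127% or 9.11% of all probe sets passed.

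The 17 early genes, which serve recombination, cohesion and synapsis, held 3 higher genes and 1 lower one, and 13 that did not pass. That is 17.6% higher and 5.88% lower, against 6.44% and 8.08% of all probe sets. *RED1* (YLR263W), an axial element protein on which homologs pair, had log2 signals of 9.24, 9.18 and 9.22 in wild-type cells and 9.64, 9.78 and 9.70 in mutant cells. The step was larger than the spread within either strain, and *RED1* rose by 0.50, a ratio of 1.41 (standard error 0.05, limma adjusted p = 0.00823). *REC8* (YPR007C), the meiotic cohesin subunit, had 8.45, 8.57 and 8.45 against 8.10, 8.02 and 7.82. It was lower in every mutant culture and fell by 0.51, a ratio of 0.703 (standard error 0.08, limma adjusted p = 0.0197). *MER1*, a meiotic splicing activator, had 7.29, 7.44 and 7.53 against 7.70, 7.81 and 7.87, and rose by 0.37 (standard error 0.07). *SPO13*, which acts at centromeres in the first division, had 7.39, 7.32 and 7.22 against 7.61, 7.63 and 7.59, and rose by 0.30 (standard error 0.05). Red1 and Rec8 both belong to the chromosome axis, and their genes moved in opposite directions. *DMC1*, the meiotic recombinase, had 9.38, 9.34 and 9.28 against 9.16, 9.14 and 8.73, lower in every mutant culture, but did not pass (log2 difference -0.32 with a standard error of 0.12, limma adjusted p = 0.103).
The other 12 early genes, which include the break-forming endonuclease gene *SPO11*, its partners *REC102*, *REC104*, *REC114* and *MEI4* and the synapsis genes *ZIP1* and *ZIP2*, differed by -0.22 to 0.30, with 4 above 0 and 8 below. Across the class the median difference was -0.05. For 12 of the 13 early genes that did not pass, the 95% confidence interval lay within 1.5-fold. *RED1* kept its call with each array left out except wild-type replicate 2 or K37A replicate 2, whereas *REC8* and *SPO13* passed only without K37A replicate 1 or K37A replicate 3 and *MER1* only without K37A replicate 1.

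The 22 middle genes, which drive the nuclear divisions and build the prospore membrane and spore wall, held 3 lower and 3 higher genes. That is 13.6% in each direction, against 8.08% lower and 6.44% higher of all probe sets. Among them were *SSP1* and *SPS22*, whose differences were the largest of the 51 genes without regard to sign. *SSP1* (YHR184W) encodes a protein of the leading edge of the prospore membrane. Its log2 signals were 8.79, 8.86 and 8.66 in wild-type cells and 7.78, 7.57 and 7.80 in mutant cells. Every mutant culture was well below every wild-type culture, and *SSP1* fell by 1.06, a ratio of 0.481 (standard error 0.08, limma adjusted p = 0.00823). The study picked *SSP1* by its fold change on these same arrays, so its direction is not independent evidence. *SPS22* (YCL048W), which encodes a protein needed for the glucan layer of the spore wall, was nearly as much lower, with 8.32, 8.48 and 8.50 against 7.66, 7.48 and 7.37. It fell by 0.93, a ratio of 0.525 (standard error 0.09, limma adjusted p = 0.00823). Its homolog *SPS2*, with overlapping function and named after its values were seen, had 6.61, 6.17 and 6.26 against 6.49, 6.74 and 6.34, where the strains overlapped (log2 difference 0.17, 95% confidence interval -0.16 to 0.51). *AMA1* (YGR225W), the meiotic activator of the anaphase-promoting complex, had 7.47, 7.52 and 7.35 against 6.97, 6.78 and 6.77, and fell by 0.61 to a ratio of 0.657 (standard error 0.07, limma adjusted p = 0.0155).
In the opposite direction, *SPS4* (YOR313C), a sporulation gene of unknown function, had 7.54, 7.23 and 7.24 in wild-type cells and 7.93, 8.27 and 8.13 in mutant cells. It was higher in every mutant culture and rose by 0.77, a ratio of 1.71 (standard error 0.11, limma adjusted p = 0.0187). *SMK1* (YPR054W), the MAP kinase of spore wall assembly, rose from 8.02, 7.86 and 7.93 to 8.35, 8.43 and 8.36, a ratio of 1.36 (log2 difference 0.44 with a standard error of 0.05, limma adjusted p = 0.0146). *SPR6*, also of unknown function, had 11.21, 11.10 and 11.12 against 11.45, 11.58 and 11.39, and rose by 0.33 (standard error 0.06). Genes that serve the same structure were thus found on both sides, as *SPS22* and *SMK1* both act on the spore wall. *SPO73*, a prospore membrane gene with a mean above 9.8 in both strains, differed by -0.26 and did not pass (adjusted p = 0.147 from limma).
The other 15 middle genes differed by -0.23 to 0.39, with 11 above 0 and 4 below. The outermost were *SPO21*, of the meiotic spindle pole body, at 0.39 (adjusted p = 0.0586 from limma) and the septin gene *SPR3* at -0.23 (adjusted p = 0.0564 from limma), both named after their values were seen, and neither passed. The class had a median difference of 0.07, and the 95% confidence interval lay within 1.5-fold for 13 of the 16 that did not pass and within 2-fold for all 16. *SSP1* kept its call with each array left out except wild-type replicate 2 (adjusted p = 0.0521 from limma), over differences of -1.11 to -0.98, and *SPS22* reached 2-fold only without K37A replicate 1 (log2 difference -1.01). *SPS22*, *SMK1*, *SPS4* and *AMA1* lost their calls without wild-type replicate 2 or K37A replicate 2, *SPS4* also without wild-type replicate 3, *AMA1* also without wild-type replicate 1, and *SPR6* without any 1 wild-type array or K37A replicate 2.

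**Figure D3:**
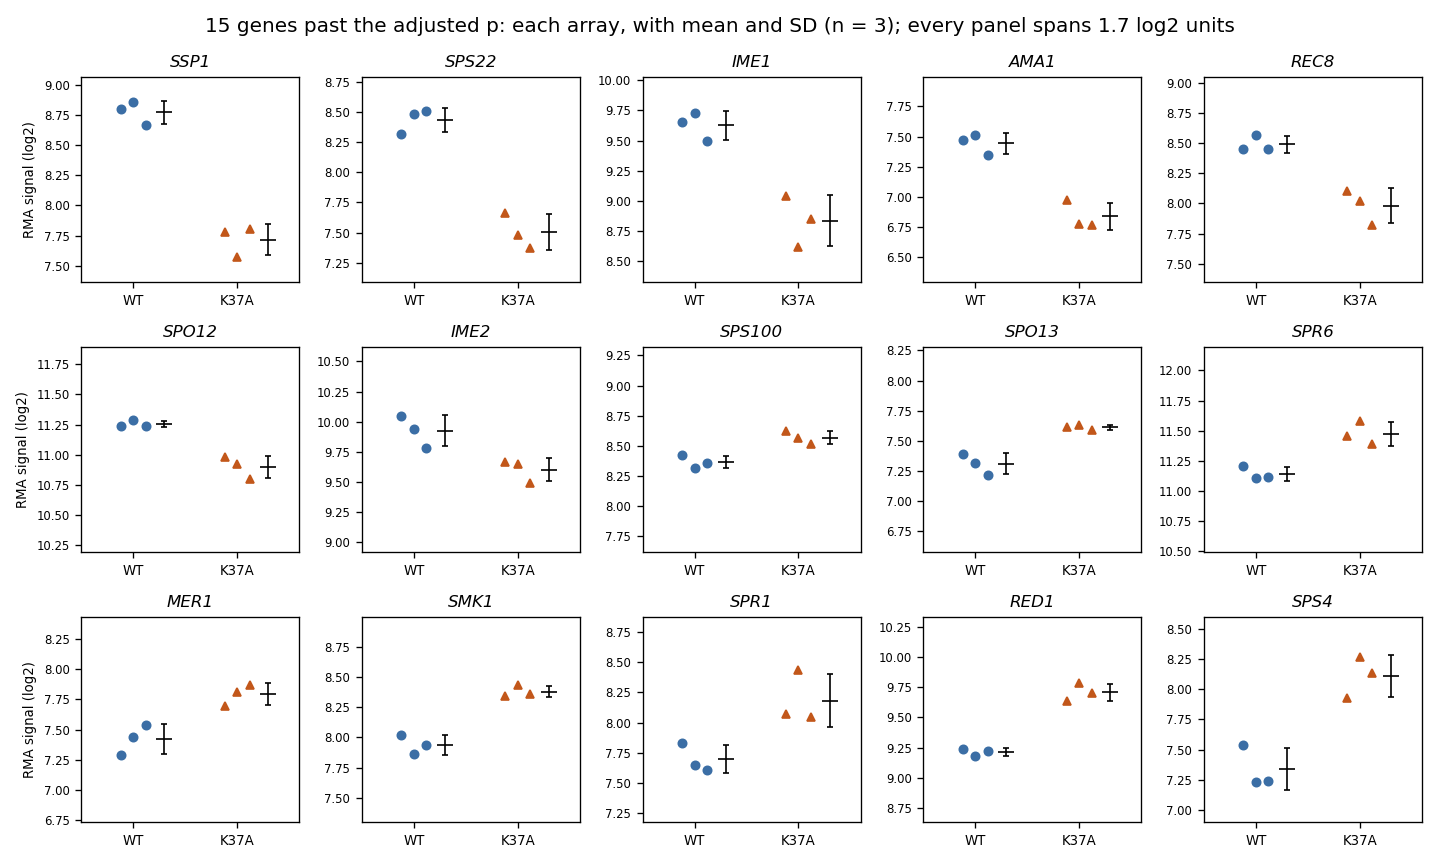
RMA signal (log2) on each array for the 15 genes past the adjusted p, ordered by difference, with the mean and SD (n = 3) in black. Circles are wild-type H2B and triangles H2B K37A, and in every panel the strains do not overlap. The panels share a span and not a common level, so the steps can be compared by eye, from -1.06 for *SSP1* to 0.77 for *SPS4*.

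Of the 4 late genes, 2 rose and none fell by limma, where 6.44% of all probe sets rose and 8.08% fell. *SPR1* (YOR190W), an exoglucanase of sporulating cells, had 7.83, 7.65 and 7.61 in wild-type cells and 8.07, 8.44 and 8.04 in mutant cells. K37A replicate 2 stood above the other mutant cultures, and the rise of 0.49 (standard error 0.12, adjusted p = 0.0421 from limma) became a difference of 0.36 that did not pass without it. The call for *SPR1* was also lost without any 1 wild-type array, as was that for *SPO12* below, and *SPS100* passed only without K37A replicate 3. *SPS100*, a spore wall maturation gene, had 8.42, 8.32 and 8.36 against 8.62, 8.57 and 8.51, and rose by 0.20, the smallest step among the 15 genes (standard error 0.05, adjusted p = 0.0376 from limma). The genes *DIT1* and *DIT2*, which make the dityrosine of the outer spore wall, differed by 0.11 and 0.07 and did not pass. *SPO12* (YHR152W) had 11.24, 11.28 and 11.24 in wild-type cells and 10.98, 10.92 and 10.80 in mutant cells, and fell by 0.35 (standard error 0.05, adjusted p = 0.0193 from limma). *SPO12* also lost its call without K37A replicate 2. *SPO14* overlapped between the strains and differed by -0.03 (95% confidence interval -0.21 to 0.15).

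**Figure D4:**
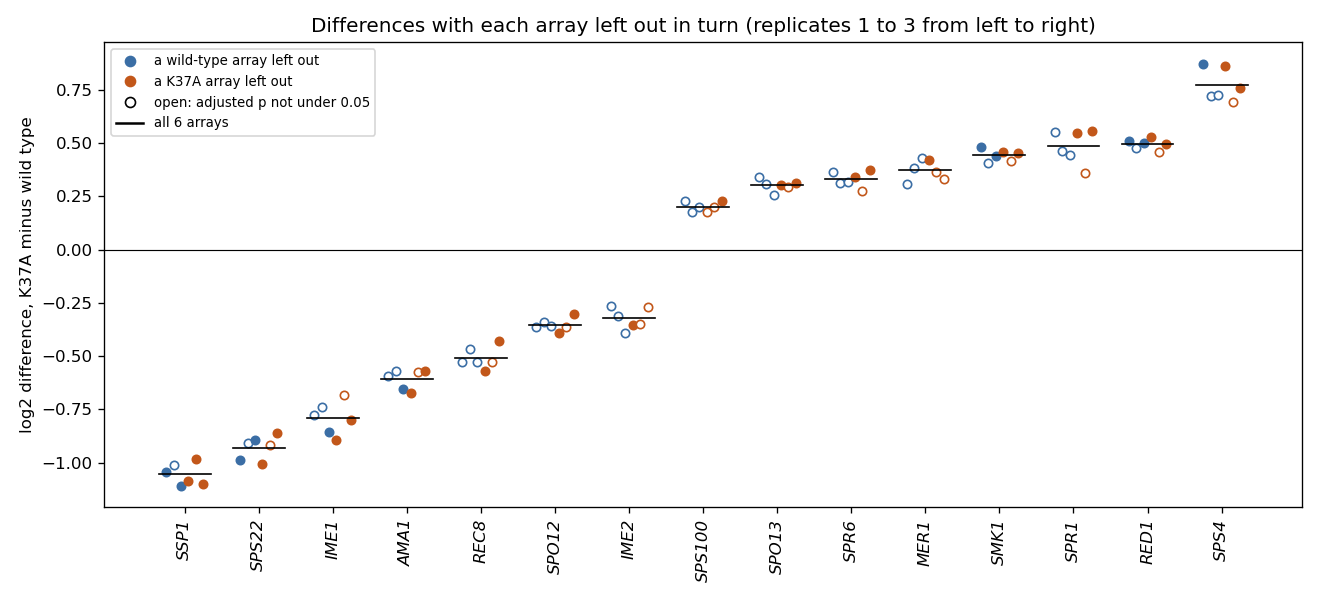
Log2 difference (K37A minus wild type) of the 15 genes with each array left out in turn, blue where a wild-type and orange where a K37A array was left out. Filled points passed the adjusted p, open points did not, and the black line is the value from all 6 arrays. No point crosses 0, while *SSP1* passes in 5 of 6 settings and *IME2*, *MER1* and *SPS100* in 1 each.

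A further 40 meiosis and sporulation genes on the array came from another list, also chosen with earlier results of these data known, so they are not independent support. These 40 genes moved in both directions as well, with 9 higher and 6 lower, or 37.5% against 14.5% of all probe sets (6.44% higher and 8.08% lower), and a median difference of 0.11 against 0.0020. Their median signal was 8.51, against 11.1 over all probe sets. Their 15 calls became 2, 0 or 4 when wild-type replicate 1, 2 or 3 was dropped and 15, 0 or 11 when K37A replicate 1, 2 or 3 was dropped. Of all probe sets, 1%, 0.0364% or 2.46% and 20.7%, 0.127% or 9.11% passed in those settings. *CDA1*, a chitin deacetylase of the spore wall, fell by 0.71 (standard error 0.07, adjusted p = 0.00860 from limma) and *IRC18*, a gene linked to spore wall formation, by 0.63 (standard error 0.08). *NDJ1*, which tethers meiotic telomeres, rose by 0.54 (standard error 0.12) and *MND1*, a recombination partner of Hop2, by 0.52 (standard error 0.07). Chosen after their values were seen, *BNS1*, the paralog of *SPO12*, fell by 0.49 (standard error 0.08) as *SPO12* did, whereas *CDA2*, the other chitin deacetylase gene and a neighbour of *CDA1*, lay below background and differed by 0.02.

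The 15 genes that passed have 30 immediate protein-coding neighbours in assembly R64, and 26 of these were tested. Of the 26, 2 passed, or 7.69% against 14.5% of all probe sets, 1 in the direction of the sporulation gene and 1 in the other. *YJL107C*, next to *IME2*, fell by 0.76 (standard error 0.12), and *SLX8*, next to *SPR6*, fell by 0.23 (standard error 0.03) where *SPR6* rose. Both neighbours of *IME1*, *FIP1* and *RPL43B*, and both of *SSP1*, *GND1* and *PFS1*, did not pass, with differences of -0.10 to 0.08, but *PFS1*, at a mean log2 signal of 3.94, lay below background. Among the 51 genes themselves, 4 pairs are adjacent, namely *DIT1* with *DIT2*, *SPS1* with *SPS2*, *HOP1* with *SPO22* and *SPO12* with *SPO16*. In the last pair *SPO12* fell while *SPO16* differed by 0.14 and did not pass, and in the other 3 pairs neither gene passed.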

How the data were processed

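RNA from 6 cultures was measured on Affymetrix arrays of the Yeast Genome 2.0 design. The authors deposited log2 values made by RMA in Expression Console, 1 value for each of 10928 probe sets and each array. Its version and a genome build are not named in the sources used here. RMA gives every array the same distribution of signals, so a shift shared by most transcripts is not seen, and differences near background come out smaller.

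Of the probe sets, 5498 matched genes of the R64 table by the Entrez gene identifiers of the platform annotation. The 51 genes, their classes and the other lists were chosen with earlier results of these data known. The glucose-repressed list (17 of 18 on the array) and the setting without both end arrays were added after the files were seen. The model (lmFit and eBayes of limma 3.58.1, R 4.3.3) held the strain alone, with Benjamini-Hochberg adjustment over 5498 probe sets, two-sided, and no filter, and the fit was tested on simulated data. The 2-fold cutoff is that of the paper, whose text names no test. Genes named were those past the adjusted p, the regulators, the 3 largest differences and the 2 brightest of each class, and up to 4 called genes of each other list. Precision is limited by having 3 arrays a strain, at which an exact permutation test of 1 gene reaches p = 0.1 at best. Alternatives were other probe sets, a filter on low signals, 2 further normalizations, the replicate block, each array left out, an intensity trend, array weights, arithmetic means and a 1.5-fold cutoff. No sequence was used.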

Additional observations from a re-analysis of the deposited data

How the results depend on the processing

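No called gene among the 51 changed sign in any setting, and all 15 were called with the low-signal filter, with arrays centred on their median, with array weights and with the replicate block. Renewed quantile normalization lost *MER1*, the intensity trend lost *SPS100*, and testing all probe sets lost *IME2*, *MER1*, *SPR1* and *SPS100*. With the replicate number as a block, 17 of the 51 genes passed, beside 17.2% of all probe sets, 8 higher and 9 lower, and *SPO73* and *SPR3* were the new calls. Deviations of same-numbered cultures from their strain means had correlations of 0.40, -0.29 and 0.23 for replicates 1, 2 and 3. Pairs with unlike numbers ran from -0.50 to 0.36. These mixed values do not settle whether same-numbered cultures share more than a number. With each array left out in turn, the number of genes called ranged from 0 to 18, with 0 to 10 higher and 0 to 8 lower. Beside it, 0.0364% to 20.7% of all probe sets passed. The number at least 2-fold different ranged from 0 to 2. Calls ranged from 0 to 15 among the 40 further sporulation genes and from 0 to 5 among the 25 upstream factors. The *SSP1* difference ran from -1.11 to -0.98. When all 10928 probe sets were tested, 11 genes passed, beside 2.57% of the probe sets, 5 of them higher, with 8 of the further sporulation genes and 2 upstream factors. Array weights, whose estimation stopped short of convergence, gave 26 genes, beside 35.6% of all probe sets, 17 of them higher, with 25 and 10 calls in the other lists. When the 2 end arrays of the first principal component, wild-type replicate 1 and K37A replicate 3, were both dropped, a setting chosen after seeing the data, 12 genes passed, beside 2.35% of all probe sets, 8 higher and 4 lower, with 4 and 0 in the other lists, and *IME1*, *IME2* and *AMA1* were among 6 calls lost. At a cutoff of 1.5-fold, 5 genes differed. Fewer arrays leave fewer residual degrees of freedom, and the causes of the other shifts were not tested.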
